A study of Mus musculus with 11 samples.

Results

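The cytochrome P450 genes of families 1 to 4 are the haem-containing monooxygenases named Cyp1 to Cyp4 in the mouse. They were taken as every gene name in the deposited expression table made of CYP, a family number from 1 to 4, a subfamily letter and a gene number, with nothing after it. The rule found 73 of the 23393 names used, 3 in family 1, 48 in family 2, 7 in family 3 and 15 in family 4. Of these 73 genes, 66 were above 0 in at least 1 library, and 54 reached a mean of 0.5 RPKM over the libraries and were tested. RPKM is a read count divided by gene length and by the depth of the library, so levels of different genes are compared per length.

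P450 enzymes of these families sit in the endoplasmic reticulum, take electrons from the reductase Por and insert an oxygen atom into drugs, steroids, fatty acids and environmental chemicals. Hepatocytes hold most of them, and many are arranged along the liver lobule, with Cyp1a2 and Cyp2e1 around the central vein, where β-catenin signaling is active, and Cyp2f2 around the portal vein. Their transcription is known to respond to ligand-activated receptors (AhR, CAR, PXR and PPARα) and, for sex-biased members, to the pattern of growth hormone release.

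Livers came from male mice of the genotype given as GS WT, 7 weeks old at injection, for which the description of the model gives a mixed 129/Ola and C57BL/6 background and the methods C57/Bl3, so the strain is not settled. The oncogene mice received plasmids for c-Met, ΔN90-β-catenin (a constitutively active β-catenin lacking its N-terminal end) and the SB10 transposase, and their livers were collected after 2 weeks (n = 4) or 3 weeks (n = 4). The control mice (n = 3) received vehicle and have a time of 0 weeks in the design text, while the series title names them vector controls, so what they received and how long before collection is not settled. In the methods, human c-MET and β-catenin are both driven by the EF1α promoter and reach the liver by hydrodynamic tail vein injection with Sleeping Beauty transposition. Only part of the hepatocytes takes up plasmid, so the bulk liver RNA mixes hepatocytes with and without the oncogenes. Fewer cells of a type and less RNA per cell cannot be told apart in such samples.

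Each mouse gave 1 library. Read totals inferred from the steps between low RPKM values were 17070000 to 22150000 in the control livers, 17680000 to 27050000 at 2 weeks and 17660000 to 20980000 at 3 weeks. For a transcript of 2000 bases, a count of 3 reads would then be 0.0555 to 0.0879 RPKM, a floor that covers counting error only. The median log2 value over the tested genes was 2.62, 2.62 and 2.58 in the control livers, 2.65, 2.64, 2.78 and 2.85 at 2 weeks and 2.86, 2.95, 2.83 and 2.87 at 3 weeks. The numbers in the library names fall into 3 ranges, with the controls in one, 2-week replicates 1 and 2 in another, and the other 6 oncogene livers in the last. What these numbers stand for is not given in the sources used here, and no range holds both control and oncogene livers.

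The labels give hepatocyte as the cell type of these liver samples. Hepatocyte markers were high in every library, with Alb at 51000.3, 44127 and 50842 RPKM in the control livers. All 8 hepatocyte markers were tested and 0 passed in limma (1 had an unadjusted p under 0.05, against 23.8% of all tested genes), and their median log2 change was -0.18. The summed hepatocyte markers stood at 76926, 68970.5 and 72555 RPKM in the control livers, 73377, 74911, 66572 and 58063 RPKM at 2 weeks and 55438, 53249.8, 60531 and 61057 RPKM at 3 weeks. All 4 sums at 3 weeks and those of 2-week replicates 3 and 4 lay under every control sum. Their part in the P450 results was not tested.

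The P450 genes together made up 2.39% to 3.07% of all RPKM. Their sum was 16338, 14797 and 15743 RPKM in the control livers, 15103, 13057, 14236 and 14924 RPKM at 2 weeks, and 15335, 15600.2, 13658 and 14536 RPKM at 3 weeks. The groups overlapped in this sum, and the lowest value belonged to 2-week replicate 2. In the control livers 10 genes carried 80.4% of it, led by Cyp2e1, an ethanol and acetone oxidase, at 4824 ± 614 RPKM (SD, n = 3), which alone was 30.9%. Cyp3a11, a broad drug and steroid oxidase, followed at 2711 ± 513 RPKM (SD, n = 3). The next were Cyp2c29 at 1133, Cyp2f2 at 1069.8, Cyp2d9 at 711, Cyp2c70 at 458, Cyp2d10 at 441, Cyp1a2 at 411, Cyp2a12 at 408 and Cyp2d26 at 400.4 RPKM on average. Cyp2c29 and Cyp2f2 differed by less than the SD of Cyp2c29 between control livers, and neighbours in the order from Cyp2c70 to Cyp2d26 differed by less than the larger of their SDs.

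The main comparison set the mean of the 2-week and 3-week groups against the control livers, to ask which genes changed with c-MET/β-catenin. Cyp2a4, Cyp2a5, Cyp2b9 and Cyp3a16 were higher and Cyp2c40 was lower in the oncogene livers (limma on log2 of RPKM + 0.5, adjusted p under 0.05 over all 11170 genes tested). These 5 are 4 higher and 1 lower of 54 tested, where 3.96% of all tested genes were higher, 0.224% lower and 4.18% either. At an unadjusted p under 0.05 stood 19 P450 genes, against 23.8% of all tested genes. The median log2 change of the tested P450 genes was -0.03 (0.006 without control replicate 1 and 0.016 without control replicate 3), with 26 of 54 above 0. Over all tested genes the median was 0.15, with 77.7% above 0. With each library centred on its own median, these medians became -0.22 and -0.05, and 1 P450 gene, Cyp2a4, passed, with 29 at an unadjusted p under 0.05 against 17.7% of all tested genes. Centring moved every log2 change of this comparison by -0.20, so that each change or list median given here as above 0 by less than that was below 0 with it. The centring also changed the split over all genes from 442 higher and 25 lower to 49 higher and 46 lower. Without control replicate 1, 0 P450 genes passed in limma (16 had an unadjusted p under 0.05), and without control replicate 2 or 3 only Cyp2a4 did, where 0.286%, 0.429% and 0.518% of all tested genes passed. Without 2-week replicates 1 and 2, 11 passed, 7 higher and 4 lower, where 13.5% of all tested genes passed, 12.8% higher and 0.660% lower.

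**Figure D1:**
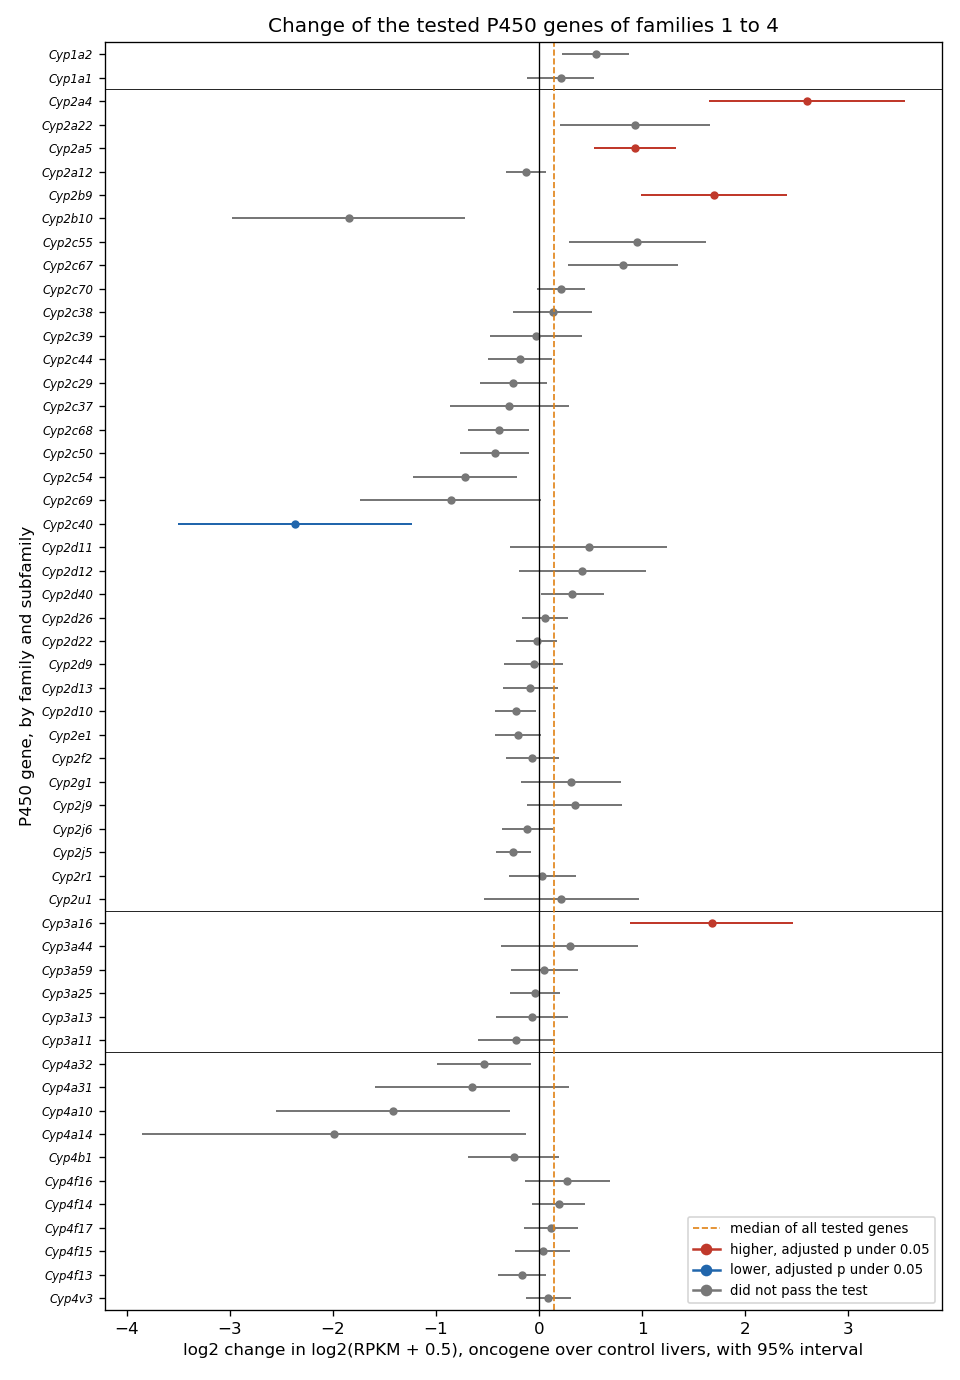
Log2 change in log2(RPKM + 0.5) between the oncogene livers (n = 8) and the control livers (n = 3) for the 54 tested P450 genes, with 95% intervals from limma. The dashed line marks the median of all tested genes (0.15), and colours mark the 4 genes that passed as higher and the 1 that passed as lower; with median centring only Cyp2a4 passed.

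The 8 oncogene livers all lay above all 3 control livers for 4 of the 54 genes, against 6.87% of all tested genes. They all lay below for 4, namely Cyp2c40, Cyp2c54, Cyp2c68 and Cyp2j5, against 0.636% of all tested genes. The 4 above were the same genes that passed as higher. In the remaining 46 the groups overlapped.

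The Cyp2a genes encode steroid and coumarin hydroxylases, and all 4 were tested. Cyp2a4 (chromosome 7, 26307169 to 26315088, plus strand, GRCm38, equal to mm10), a testosterone 15-alpha-hydroxylase more abundant in female liver, read 0.395, 1.75 and 1.74 RPKM in the control livers. It read 5.25, 7.78, 15.1 and 10.4 RPKM at 2 weeks and 3.72, 12.6, 17.96 and 11.96 RPKM at 3 weeks. Every oncogene liver was above every control liver, the lowest being 3-week replicate 1, and control replicate 1 was well under the other controls. The mean was 8.18 times the control mean, and the log2 change was 2.60 (standard error 0.43, limma, adjusted p = 0.0129; 2.41 with median centring, adjusted p = 0.0239). It passed in 17 of 18 alternatives, with adjusted p over 18 alternatives from 0.000854 to 0.0748, the highest being the one that left out control replicate 1.

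Cyp2a5 (chromosome 7, 26835305 to 26843548, plus strand), the coumarin 7-hydroxylase of the pericentral zone, was at 304, 261 and 238 RPKM in the control livers. Levels were 419, 335, 564 and 501 RPKM at 2 weeks and 422, 749.8, 551 and 659 RPKM at 3 weeks. All 8 oncogene livers exceeded the 3 controls, with 2-week replicate 2 the closest to them. The oncogene mean was 1.96 times the control mean (log2 change 0.93, standard error 0.18, limma, adjusted p = 0.0231). With median centring the log2 change was 0.74 and the adjusted p 0.0601, and 13 of 18 alternatives passed, with adjusted p over 18 alternatives from 0.00792 to 0.109, highest when control replicate 3 was left out.

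Of the 50-base words of Cyp2a4, 36.1% also occur in Cyp2a5 and 38.8% in any other gene, so reads of the less abundant gene may partly be reads of the other. The handling of reads that match several genes is not given in the sources used here. Summed over both genes, the level was 305, 263 and 240.2 RPKM in the control livers, 424, 342, 579 and 511 RPKM at 2 weeks and 426, 762, 569 and 671 RPKM at 3 weeks, a sum chosen after the values were seen. Each gene alone already had every oncogene liver above every control liver, so the sum had to show this order as well. It does not show how reads were divided between the 2 genes. Cyp2a22 read 0.669, 1.08 and 1.47 RPKM in the control livers, 1.45, 2.01, 6.06 and 2.24 RPKM at 2 weeks and 1.65, 1.72, 3.92 and 2.49 RPKM at 3 weeks. The lowest oncogene value, 2-week replicate 1, lay under the highest control, and the gene did not pass (log2 change 0.93, limma, adjusted p = 0.124). Cyp2a12, a steroid hydroxylase of male and female liver, had a log2 change of -0.13 with a 95% interval of -0.31 to 0.06.

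Of the 5 Cyp2b genes, Cyp2b9 and Cyp2b10 were tested, and Cyp2b10 is the classic target of phenobarbital and its receptor CAR. Cyp2b9 (chromosome 7, 26173411 to 26210661, plus strand), which is more abundant in female liver, was almost equal in the control livers at 0.433, 0.434 and 0.437 RPKM. It stood at 2.11, 3.29, 8.41 and 1.96 RPKM at 2 weeks and 1.83, 1.37, 2.81 and 1.85 RPKM at 3 weeks. Each oncogene liver was over 3 times the controls, with 2-week replicate 3 the highest. The log2 change was 1.70 (standard error 0.32, limma, adjusted p = 0.0228), and 14 of 18 alternatives passed, with adjusted p over 18 alternatives from 0.00356 to 0.0889, highest when control replicate 1 was left out. The control mean, 0.435 RPKM, was under the filter of 0.5 RPKM, so the gene was tested only through the oncogene livers. With no filter the limma adjusted p was 0.0432. Median centring gave 1.51 and an adjusted p of 0.0583. At the inferred totals the lowest read count of Cyp2b9 in any liver was about 14.0, and the control level rests on few reads.

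Cyp2b10 (chromosome 7, 25897620 to 25926624, plus strand) read 1.88, 5.91 and 3.66 RPKM in the control livers. Its values were 0.363, 0.592, 4.05 and 0.0870 RPKM at 2 weeks and 0.356, 0.233, 1.21 and 0.338 RPKM at 3 weeks. Except for 2-week replicate 3, which was above control replicates 1 and 3, the oncogene livers were under every control. The gene did not pass (log2 change -1.85, 95% interval -2.97 to -0.72, limma, adjusted p = 0.0654), and without 2-week replicate 3 it did, at the lower end of adjusted p over 17 alternatives from 0.00888 to 0.207. Cyp2b10 and Cyp2b9 thus had log2 changes of opposite sign in the same livers. Cyp2b13, another female-biased gene, was listed at 0 in all 3 control livers and read 0, 0.0590, 0.332 and 0.0580 RPKM at 2 weeks and 0.0760, 0.0520, 0.272 and 0.112 RPKM at 3 weeks. Its mean was under the filter, and the gene was not tested.

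Cyp3a genes oxidise many drugs and steroids, and 6 of 7 were tested. Cyp3a16 (chromosome 5, 145436309 to 145469723, minus strand), a form of fetal and female liver, read 1.36, 1.44 and 2.30 RPKM in the control livers. It read 7.29, 7.50, 14.7 and 4.70 RPKM at 2 weeks and 3.58, 11.1, 6.09 and 2.93 RPKM at 3 weeks. The lowest oncogene value, in 3-week replicate 4, was still above the highest control. The log2 change was 1.68 (standard error 0.36, limma, adjusted p = 0.0276), with 1.48 and 0.0828 under median centring and 13 of 18 alternatives passing. Over these alternatives the limma adjusted p ran from 0.0146 to 0.125, highest when control replicate 1 was left out. Cyp3a44, a second female-biased form, read 0.736, 0.831 and 0.806 RPKM in the control livers against 1.18, 1.09, 2.84 and 0.938 RPKM at 2 weeks and 0.996, 1.80, 0.635 and 0.296 RPKM at 3 weeks. Its groups overlapped, and 3-week replicates 3 and 4 lay under all controls (log2 change 0.30, 0.16 to 0.42 with 1 liver left out, limma, adjusted p = 0.564). The abundant Cyp3a11 read 2944, 2124 and 3066 RPKM in the control livers, 2491, 1783, 2313 and 2469 RPKM at 2 weeks and 2510.3, 3099, 2126 and 1858 RPKM at 3 weeks. Its groups overlapped (log2 change -0.22, 95% interval -0.58 to 0.15; -0.39 without control replicate 2 and -0.12 without control replicate 3). Cyp3a13, Cyp3a25 and Cyp3a59 had log2 changes of -0.07, -0.04 and 0.05, none past the test.

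**Figure D2:**
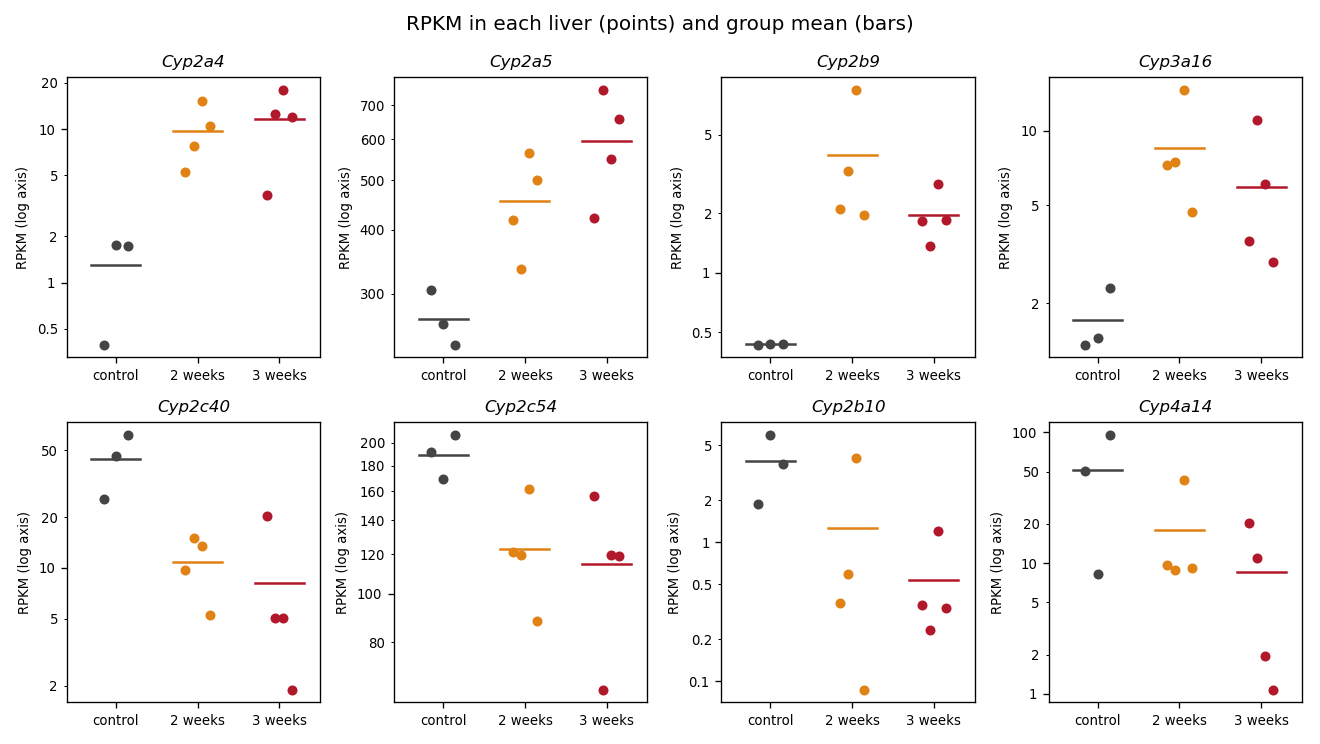
RPKM of 8 P450 genes in each liver on log axes, with points for the 3 control, 4 2-week and 4 3-week livers and bars for group means. Cyp2a4, Cyp2a5, Cyp2b9 and Cyp3a16 have every oncogene liver above every control, Cyp2c40 and Cyp2c54 every one below, and Cyp2b10 and Cyp4a14 overlap.

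The Cyp2c genes metabolise drugs, fatty acids and steroids, and 13 of 15 were tested, with 0 higher, 1 lower and 6 at an unadjusted p under 0.05 in limma, where 3.96% of all tested genes were higher, 0.224% lower and 23.8% at that unadjusted p. Their median log2 change was -0.25, beside 0.15 for all tested genes. Cyp2c40 (chromosome 19, 39767071 to 39812814, minus strand), a female-biased arachidonate oxidase, was at 25.6, 46.1 and 61.4 RPKM in the control livers. It was at 9.67, 14.98, 13.5 and 5.26 RPKM at 2 weeks and 20.5, 5.03, 5.06 and 1.90 RPKM at 3 weeks. All oncogene livers lay under all controls, with 3-week replicate 1 the closest to them and 3-week replicate 4 the lowest. The control mean was 4.68 times the oncogene mean, and the level fell by 2.37 on the log2 scale (standard error 0.52, adjusted p in limma = 0.0289). It passed in 12 of 18 alternatives, with adjusted p over 18 alternatives from 0.00606 to 0.148, highest when control replicate 3 was left out; with median centring the log2 change was -2.57 and the limma adjusted p 0.0503.

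Other genes hold 60.3% of the 50-base words in the Cyp2c40 transcripts, Cyp2c69 36.7% and Cyp2c67 30.2%. Cyp2c69 (chromosome 19, 39842814 to 39886799, minus strand) read 18.4, 33.2 and 56.2 RPKM in the control livers, 23.4, 27.9, 28.5 and 9.48 RPKM at 2 weeks and 22.00, 24.3, 10.05 and 10.3 RPKM at 3 weeks. Its groups overlapped through control replicate 1, the lowest control for Cyp2c40 as well (log2 change -0.86, -0.47 without control replicate 3, limma, adjusted p = 0.215). Cyp2c67 (chromosome 19, 39608842 to 39649051, minus strand), named after its values were seen, read 190.0, 154 and 101 RPKM in the control livers, 252, 294, 189 and 254 RPKM at 2 weeks and 234, 426, 177 and 266 RPKM at 3 weeks. Here control replicate 1 was the highest control, and 2-week replicate 3 and 3-week replicate 3 lay under it, so the groups overlapped (log2 change 0.81, limma, adjusted p = 0.0769). The sum of these 3 genes was 234, 234 and 219 RPKM in the control livers, 285, 336, 231 and 268 RPKM at 2 weeks and 277, 455, 192 and 278 RPKM at 3 weeks. The controls were close to each other in the sum, and 2-week replicate 3 and 3-week replicate 3 lay among or below them. In the sum of Cyp2c40 and Cyp2c69 alone, 44.01, 79.3 and 118 RPKM in the control livers, 33.04, 42.8, 42.00 and 14.7 RPKM at 2 weeks and 42.5, 29.3, 15.1 and 12.2 RPKM at 3 weeks, every oncogene liver lay under every control, the highest by a small margin. Cyp2c67 was the most abundant of the 3 in every liver, and both sums were chosen after the values were seen. How reads were divided among these copies was not tested, and their separate levels are uncertain for this reason.

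Cyp2c54 (chromosome 19, 40037940 to 40073827, minus strand), a pericentral gene, read 192, 169 and 207 RPKM in the control livers, 121, 119, 162 and 88.1 RPKM at 2 weeks and 157, 64.4, 119 and 119 RPKM at 3 weeks. Cyp2c68 (chromosome 19, 39688834 to 39741054, minus strand) read 134, 142 and 144 RPKM in the control livers, 119, 129, 115 and 85.5 RPKM at 2 weeks and 109, 111, 80.3 and 111 RPKM at 3 weeks. For both genes every oncogene liver was under every control, but neither passed the test (limma, adjusted p = 0.0915 and 0.108, log2 changes -0.72 and -0.39). Other genes hold 43.3% of the 50-base words of Cyp2c68, 25.7% of those of Cyp2c54, 30.1% of Cyp2c37 and 18.3% of Cyp2c50. How reads were divided among these genes was not tested. Cyp2c50 had a log2 change of -0.43 (limma, adjusted p = 0.120), Cyp2c37 of -0.29 and the abundant Cyp2c29 of -0.25. The change in Cyp2c37 was -0.06 without control replicate 1, -0.51 without control replicate 2 and -0.18 without 2-week replicate 4, and that in Cyp2c29 -0.38 without control replicate 1. In the other direction, Cyp2c55 read 5.31, 5.74 and 9.18 RPKM in the control livers, 12.03, 5.72, 13.5 and 19.2 RPKM at 2 weeks and 10.9, 18.6, 12.2 and 19.96 RPKM at 3 weeks. Only 2-week replicate 2 lay within the control range (log2 change 0.95, limma, adjusted p = 0.0915). Cyp2c70, which makes muricholic acids in the mouse, had a log2 change of 0.21 (0.13 without control replicate 1), Cyp2c38 of 0.13 (-0.06 with median centring), Cyp2c39 of -0.03 and Cyp2c44 of -0.18.

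**Figure D3:**
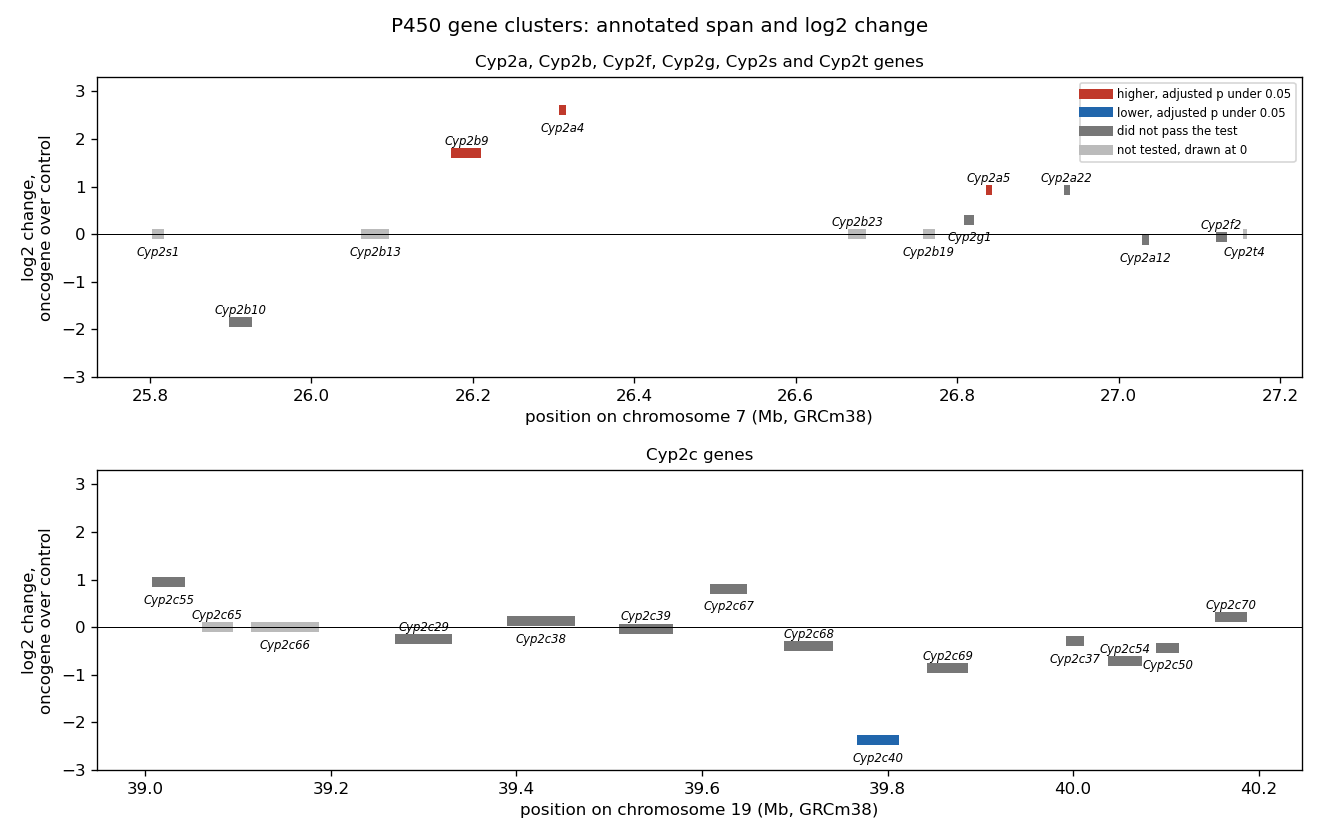
Annotated spans (GRCm38, Mb) of the Cyp2 cluster on chromosome 7 and the Cyp2c cluster on chromosome 19, each gene drawn at its log2 change between oncogene and control livers. Cyp2b9, Cyp2a4 and Cyp2a5 passed as higher and Cyp2c40 as lower, both clusters hold tested genes with changes of either sign, and Cyp2c44 lies outside the range drawn. Genes in light grey were not tested and are drawn at 0.

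Cyp1 enzymes oxidise planar aromatic molecules and are targets of the receptor AhR. Cyp1a2 (chromosome 9, 57676937 to 57683703, minus strand), the pericentral caffeine oxidase, read 472, 392.5 and 368 RPKM in the control livers, 576, 516, 639 and 653 RPKM at 2 weeks and 541, 759, 466 and 693 RPKM at 3 weeks. Only 3-week replicate 3 was not above all controls, being just under control replicate 1. The log2 change was 0.55 with a 95% interval of 0.24 to 0.86 (limma, adjusted p = 0.0527), and it passed without 2-week replicates 1 and 2 and without 3-week replicate 3, with adjusted p over 18 alternatives from 0.0280 to 0.222. Cyp1a1 was low, at 0.534, 0.530 and 0.399 RPKM in the control livers, 0.731, 0.345, 0.706 and 0.777 RPKM at 2 weeks and 0.582, 0.678, 0.671 and 0.700 RPKM at 3 weeks. Apart from 2-week replicate 2, the lowest of all, each oncogene liver exceeded the controls (log2 change 0.21, 0.01 with median centring, limma, adjusted p = 0.388). The control mean of Cyp1a1, 0.488 RPKM, was under the filter of 0.5 RPKM, so the gene was tested only through the oncogene livers. Cyp1b1 and Cyp2s1, other AhR targets, had means under the filter and were not tested.

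Zonation along the lobule separates the members of families 1 to 3 in normal liver. The list of pericentral P450 genes holds Cyp1a2, Cyp2e1, Cyp2a5, Cyp2c29, Cyp2c37, Cyp2c50, Cyp2c54 and Cyp3a11. Of these 8, 1 (Cyp2a5) rose and 0 fell, against 3.96% and 0.224% of all tested genes, and 2 had a log2 change above 0, with a median of -0.24. Cyp2e1 (chromosome 7, 140763739 to 140774987, plus strand) read 5480.3, 4729 and 4263 RPKM in the control livers, 4166, 3758, 3725 and 4299 RPKM at 2 weeks and 4567, 4504, 4087 and 4254 RPKM at 3 weeks. The lowest control lay among the oncogene livers, and the difference did not pass (log2 change -0.21, 95% interval -0.42 to 0.01, limma, adjusted p = 0.227), the log2 change being -0.11 without control replicate 1. The periportal Cyp2f2 (chromosome 7, 27119909 to 27133660, plus strand) read 933, 1140.1 and 1136 RPKM in the control livers, 1311, 898, 1056 and 1089.5 RPKM at 2 weeks and 1034, 974, 866 and 973 RPKM at 3 weeks. Its groups overlapped throughout (log2 change -0.07, 95% interval -0.31 to 0.18).

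Pericentral and β-catenin-induced genes outside the P450 families were read beside them. Of the 21 listed, all tested, 15 rose and 0 fell, against 3.96% and 0.224% of all tested genes, with a median log2 change of 1.15. Glul, glutamine synthetase, went from 246, 268 and 243 RPKM in the control livers to 476, 613, 889 and 788 RPKM at 2 weeks and 529, 1124, 595 and 724 RPKM at 3 weeks. All oncogene livers were above all controls (log2 change 1.46, limma, adjusted p = 0.00842). Axin2, a feedback target of β-catenin, rose by 1.15 on the log2 scale (adjusted p in limma = 0.0172), with means of 1.36 RPKM in the control and 3.77 RPKM in the oncogene livers.

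Of the 9 Cyp2d genes, which oxidise amine drugs and steroids, 8 were tested and 0 passed in limma (unadjusted p under 0.05: 2, against 23.8% of all tested genes). Cyp2d9, a male-biased steroid 16-alpha-hydroxylase, read 821, 673 and 638 RPKM in the control livers, 797, 774, 539 and 777 RPKM at 2 weeks and 742, 608, 619 and 641 RPKM at 3 weeks. Its groups overlapped, with 2-week replicate 3 the lowest (log2 change -0.05, 95% interval -0.33 to 0.23). Cyp2d10 and Cyp2d26 had log2 changes of -0.23 and 0.06 (the latter -0.14 with median centring; limma, adjusted p = 0.151 and 0.740). The other Cyp2d genes tested ranged from -0.08 in Cyp2d13, a transcribed pseudogene by the annotation, to 0.48 in Cyp2d11. The means of Cyp2d22 were 163 RPKM in the control and 161 RPKM in the oncogene livers, with a 95% interval of the log2 change of -0.21 to 0.17.

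Cyp2j genes make epoxides of arachidonic acid. Cyp2j5 (chromosome 4, 96628773 to 96664154, minus strand) read 264, 248 and 275 RPKM in the control livers, 229, 237, 208 and 214 RPKM at 2 weeks and 233, 206, 224 and 211 RPKM at 3 weeks. Every oncogene liver was under every control by a small margin, and the gene did not pass (log2 change -0.25, standard error 0.07, limma, adjusted p = 0.0753). Cyp2j6 and Cyp2j9 had log2 changes of -0.11 and 0.34, and Cyp2g1, Cyp2r1 (a vitamin D 25-hydroxylase) and Cyp2u1 of 0.31, 0.03 and 0.22. None of these 5 passed the test.

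Family 4 enzymes hydroxylate fatty acids at their end, and the Cyp4a genes are targets of PPARα. Of the 15 members, 11 were tested and 0 passed in limma (unadjusted p under 0.05: 3, against 23.8% of all tested genes), with a median log2 change of -0.16, beside 0.15 for all tested genes. Cyp4a14 (chromosome 4, 115486200 to 115496142, minus strand) read 50.9, 8.27 and 95.6 RPKM in the control livers, 9.66, 8.78, 43.5 and 9.22 RPKM at 2 weeks and 20.3, 11.01, 1.95 and 1.08 RPKM at 3 weeks. The controls themselves spanned more than 10-fold, and control replicate 2 was lower than 6 of the 8 oncogene livers. The log2 change of -1.99 therefore came with a 95% interval of -3.84 to -0.13 (limma, adjusted p = 0.183). It was -2.99 without control replicate 2 and -1.26 without control replicate 3.

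Cyp4a10 (chromosome 4, 115518264 to 115533649, plus strand) showed the same order of the controls, with 84.1, 27.2 and 137 RPKM, and read 35.2, 33.8, 58.7 and 32.8 RPKM at 2 weeks and 42.5, 21.6, 11.2 and 6.62 RPKM at 3 weeks. Control replicate 2 again lay among the oncogene livers (log2 change -1.42, -0.91 without control replicate 3, 95% interval -2.54 to -0.29, limma, adjusted p = 0.131). The other Cyp4a genes tested, Cyp4a31 and Cyp4a32, had log2 changes of -0.65 and -0.53, and both were named after their values were seen. Of the PPARα targets outside the P450 families, 0 of 16 tested passed in limma (unadjusted p under 0.05: 5, against the same 23.8%), with a median log2 change of -0.19. The 5 tested Cyp4f genes, which inactivate leukotrienes, had log2 changes from -0.16 in Cyp4f13 to 0.27 in Cyp4f16, Cyp4b1 of -0.25 and Cyp4v3 of 0.09.

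The time points were also compared on their own, against the same 3 control livers. At 2 weeks 1 P450 gene, Cyp2b9, was higher and 0 were lower, where 0.278% of all tested genes were higher and 0.00895% lower, 0.286% either. At 3 weeks Cyp2a4, Cyp2a5 and Cyp2b9 were higher and Cyp2c40 was lower, where 8.11% were higher and 0.358% lower, 8.47% either. With median centring the 3-week comparison had 2 P450 genes higher and 1 lower, where 0.483% of all tested genes were higher and 0.6% lower. At an unadjusted p under 0.05 stood 17 P450 genes at 2 weeks, against 12.0% of all tested genes, and 19 at 3 weeks, against 31.1%. With median centring the latter became 31, against 19.3%. For Cyp2a4 the log2 change was 2.52 at 2 weeks and 2.68 at 3 weeks (limma, adjusted p = 0.0629 and 0.0126). For Cyp2a5 it was 0.74 and 1.13 (limma, adjusted p = 0.152 and 0.0126). Both were above 0 at each time. For Cyp2b9 it was 2.04 and 1.37 (limma, adjusted p = 0.0386 and 0.0407). For Cyp3a16 it was 1.95 and 1.40 (limma, adjusted p = 0.0719 and 0.0521), neither of which passed, and for Cyp2c40 -1.99 and -2.75 (limma, adjusted p = 0.176 and 0.0205). At 2 weeks Cyp2b9 passed in 9 of 19 alternatives, with adjusted p in limma from 0.0108 to 0.164. It did not with median centring, a pseudocount of 1 or no filter, when any 1 control liver, 2-week replicate 2, 3-week replicate 1 or 3-week replicate 4 was left out, nor with only the groups compared. In the last setting, and without 3-week replicate 1, Cyp2a4 passed in its place. At 3 weeks only Cyp2a5 passed without control replicate 1 and only Cyp2a4 without control replicate 3, against 1.05% of all tested genes in each case, while 7 and 8 P450 genes passed without 2-week replicates 3 and 4, against 9.33% and 9.74% of all tested genes. At 3 weeks Cyp2b9 passed in 8 of 19 alternatives, with adjusted p in limma from 0.00689 to 0.141, and did not with median centring, a pseudocount of 1, no filter, or any 1 control liver, any 1 3-week liver or 2-week replicate 2 left out. Cyp2c40 did not pass at 3 weeks when any 1 control liver was left out.

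Set directly against each other, 3 weeks and 2 weeks differed in 0 of the 54 P450 genes and 0 of all tested genes in limma, with 3 P450 genes at an unadjusted p under 0.05 against 12.6% of all tested genes. These were Cyp2c39 (log2 change 0.49), Cyp4a10 (-1.23) and Cyp4a31 (-1.19), with adjusted p of 0.379, 0.382 and 0.364. Cyp4a31, named after its values were seen, read 3.20, 2.12, 4.13 and 3.50 RPKM at 2 weeks and 1.90, 2.74, 0.519 and 0.336 RPKM at 3 weeks. The values of 3-week replicates 3 and 4 were low, and those of 3-week replicates 1 and 2 lay near the 2-week livers.

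P450 genes were also grouped by how they are known to be regulated. Of 9 tested genes more abundant in female liver, 3 rose (Cyp2a4, Cyp2b9 and Cyp3a16) and 1 fell (Cyp2c40), against 3.96% and 0.224% of all tested genes, with a median log2 change of 0.13. The male-biased Cyp2d9 and Cyp2u1 did not pass. Of 11 tested genes listed as CAR and PXR targets, Cyp2b9 and Cyp2a5 rose and 0 fell, against the same 3.96% and 0.224%. The median of this list was -0.22, and Cyp2b10, its classic CAR target, did not pass (log2 change -1.85). Of 2 tested AhR targets 0 passed in limma (unadjusted p under 0.05: 1, against 23.8% of all tested genes). Of the 54 tested genes, 19 share at least 20% of their 50-base words with other genes, and these hold 2 of the 4 that rose and the 1 that fell. No such value was available for Cyp2c44 and Cyp2d13. Names of families 1 to 4 outside the pattern, such as Cyp4a12a, were 10, of which 4 were tested and 0 passed in limma (unadjusted p under 0.05: 1, against 23.8%). Of 14 tested P450 genes of families 5 and above, Cyp39a1, an oxysterol hydroxylase, fell by 1.33 on the log2 scale (adjusted p in limma = 0.0406) and 0 rose, against 0.224% and 3.96% of all tested genes, with a median of 0.36.

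Genes with the same regulation outside the P450 families gave the following counts, beside 3.96% higher, 0.224% lower and 23.8% at an unadjusted p under 0.05 among all tested genes. Of 8 tested female-biased genes, A1bg rose, from 0.272, 0.308 and 0.418 RPKM in the control livers to 17.1, 23.7, 37.2 and 14.6 RPKM at 2 weeks and 9.02, 14.9, 12.2 and 20.5 RPKM at 3 weeks (log2 change 4.41, limma, adjusted p = 9.42e-06). Its control values were all under the filter of 0.5 RPKM, so it was tested only through the oncogene livers. Another 8 listed genes had means under the filter and were not tested. Of the 8 tested, 5 had an unadjusted p under 0.05 in limma, and the median of the list was 0.52. Of 15 tested male-biased genes 0 passed in limma (unadjusted p under 0.05: 5), with a median of 0.24. Of 14 tested CAR and PXR targets, Gstm3 rose by 1.88 on the log2 scale (adjusted p in limma = 0.00308) and 0 fell (unadjusted p under 0.05: 5), with a median of 0.11. Of 4 tested AhR targets 0 passed in limma (unadjusted p under 0.05: 1), with a median of 0.08.

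P450 activity also needs electrons and haem. Of 17 tested genes of electron transfer and haem supply, Blvrb and Cyb5b rose and 0 fell, against 3.96% and 0.224% of all tested genes, with a median log2 change of 0.11. Por, the reductase that serves all of these P450 enzymes, read 191, 202 and 149.7 RPKM in the control livers, 131, 141, 272 and 216 RPKM at 2 weeks and 195, 207, 212 and 231 RPKM at 3 weeks. Its groups overlapped, with 2-week replicates 1 and 2 the lowest (log2 change 0.13, limma, adjusted p = 0.713). Of 26 tested regulators, Tcf7 rose (log2 change 0.85, limma, adjusted p = 0.0402) and Foxa3 fell by 0.53 on the log2 scale (adjusted p in limma = 0.0464), against the same shares of all tested genes, with a median of 0.10. The receptor genes Ahr, Nr1i3 (CAR), Nr1i2 (PXR) and Ppara had log2 changes of 0.08, -0.18, 0.06 and -0.30 and did not pass.

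Markers of other liver cells were read beside the P450 genes. Of 8 tested stellate cell and fibroblast markers, Col1a1 and Pdgfrb rose, by 0.87 and 0.76 on the log2 scale (adjusted p in limma = 0.0133 and 0.0121), where 3.96% of all tested genes rose. The sum of these 8, led by Dcn, was 82.4, 78.5 and 89.7 RPKM in the control livers, 55.1, 69.1, 77.2 and 71.6 RPKM at 2 weeks and 87.8, 81.8, 83.2 and 85.3 RPKM at 3 weeks. The 3-week sums thus lay near the control sums, and those of 2-week replicates 1 and 2 were the lowest. The median log2 change of these 8 markers was 0.47, with 7 above 0. At an unadjusted p under 0.05 in limma stood 5, against 23.8% of all tested genes. All 8 oncogene livers lay above every control for 3 of the markers and below for 1. Of the tested markers of macrophages (8), cholangiocytes (4), endothelial cells (7), lymphocytes (2) and neutrophils (2), 0 passed in limma (unadjusted p under 0.05: 4, 2, 1, 1 and 0, against 23.8% of all tested genes). Macrophage markers, led by Lyz2, summed to 126, 136 and 133 RPKM in the control livers, 129, 175, 175 and 125 RPKM at 2 weeks and 153, 202, 151 and 183 RPKM at 3 weeks. All 4 sums at 3 weeks were above the controls. The median log2 changes were 0.24 for macrophage, 0.24 for cholangiocyte, 0.01 for endothelial, 0.48 for lymphocyte and -0.41 for neutrophil markers. Lymphocyte markers, led by Nkg7, summed to 1.40, 2.06 and 0.972 RPKM in the control livers, 3.93, 3.65, 2.42 and 2.14 RPKM at 2 weeks and 4.14, 2.59, 5.33 and 2.97 RPKM at 3 weeks. All 8 sums of the oncogene livers were above the controls. Endothelial markers, led by Clec4g, summed to 81.3, 87.7 and 88.99 RPKM in the control livers, 61.8, 66.8, 84.6 and 71.7 RPKM at 2 weeks and 76.6, 79.4, 69.4 and 83.99 RPKM at 3 weeks. The sums of 2-week replicate 3 and 3-week replicate 4 lay within the control range, and those of the other 6 oncogene livers under it. Cholangiocyte markers, led by Spp1, summed to 25.3, 23.6 and 33.6 RPKM in the control livers, 40.7, 28.8, 40.7 and 47.9 RPKM at 2 weeks and 34.1, 49.3, 28.9 and 34.9 RPKM at 3 weeks. The sums of 2-week replicate 2 and 3-week replicate 3 lay within the control range, and those of the other 6 oncogene livers above it. Neutrophil markers, led by S100a9, had sums of 7.99, 7.85 and 12.3 RPKM in the control livers, 3.15, 4.48, 11.6 and 6.95 RPKM at 2 weeks and 10.2, 9.74, 10.6 and 2.79 RPKM at 3 weeks, which overlapped. None of the markers found was at 0 in all libraries, and the part of other cells in the P450 results was not tested.

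The promoters of the 5 genes that passed are shown because 4 of them rose together. RefSeq (GRCm38.p6) gives 67 promoter windows for 60 of the 73 genes, and the 250 bases before each start were searched on both strands. With a gene counted once however many windows it has, the C/EBP motif TTGCNNAA was found for 14 of the 60 genes (23.3%), and for 10.8% of the 27025 genes with a window. Related gene copies count separately, and these 14 include Cyp2a4, Cyp2a5 and every Cyp2b gene, so they are not independent. The TCF/LEF motifs CTTTGAT and CTTTGAA were found for 5 (8.33%, against 8.63%), the AhR core GCGTG for 12 (20%, against 30.9%) and the STAT5 motif TTCNNNGAA for 4 (6.67%, against 8.13%). The motifs were counted separately, and matches may overlap. Of the 4, only TTGCNNAA occurs in the windows printed here, in Cyp2a4, Cyp2a5 and Cyp2b9, and it is marked in capitals. The other P450 genes with this motif were Cyp2b10, Cyp2c37, Cyp2c69 and Cyp3a25, with log2 changes below 0, Cyp2c67, Cyp2j9 and Cyp4f14, with log2 changes above 0 (that of Cyp4f14 below 0 with median centring), and Cyp2b13, Cyp2b19, Cyp2b23 and Cyp2j8, which were not tested, and none of those tested passed. Distances are counted from the RefSeq starts, which for these genes differ from the gene starts given above. In Cyp2a4 the match runs from 70 to 63 bases before the start, in Cyp2a5 from 71 to 64 and in Cyp2b9 from 180 to 173. The Cyp2a4 and Cyp2a5 windows are 97.6% identical, with 245 identical positions over 251 aligned columns, and Cyp2a4 and Cyp2b9 are 50.2% identical. A match describes these letters and no binding. The windows lie at chr7:26306942-26307191 (plus strand), chr7:26835089-26835338 (plus), chr7:26173159-26173408 (plus), chr5:145469724-145469973 (minus) and chr19:39812815-39813064 (minus).
Cyp2a4: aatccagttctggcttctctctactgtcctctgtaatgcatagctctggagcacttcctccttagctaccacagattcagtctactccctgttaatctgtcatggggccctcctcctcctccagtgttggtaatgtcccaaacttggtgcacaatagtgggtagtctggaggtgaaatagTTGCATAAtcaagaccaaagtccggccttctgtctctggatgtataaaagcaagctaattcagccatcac
Cyp2a5: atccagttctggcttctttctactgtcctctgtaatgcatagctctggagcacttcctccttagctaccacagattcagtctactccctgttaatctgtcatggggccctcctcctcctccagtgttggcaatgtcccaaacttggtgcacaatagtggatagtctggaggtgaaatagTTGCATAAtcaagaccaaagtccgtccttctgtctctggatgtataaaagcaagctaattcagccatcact
Cyp2b9: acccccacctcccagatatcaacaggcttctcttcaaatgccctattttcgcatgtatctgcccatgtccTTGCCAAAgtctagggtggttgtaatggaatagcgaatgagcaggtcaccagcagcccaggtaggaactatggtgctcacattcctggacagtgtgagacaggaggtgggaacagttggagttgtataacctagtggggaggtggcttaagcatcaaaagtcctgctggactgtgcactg
Cyp3a16: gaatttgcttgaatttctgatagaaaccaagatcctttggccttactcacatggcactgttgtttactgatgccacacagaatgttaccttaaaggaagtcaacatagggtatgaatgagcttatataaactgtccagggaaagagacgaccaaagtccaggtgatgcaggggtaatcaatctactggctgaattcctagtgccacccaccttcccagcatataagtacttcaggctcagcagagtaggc
Cyp2c40: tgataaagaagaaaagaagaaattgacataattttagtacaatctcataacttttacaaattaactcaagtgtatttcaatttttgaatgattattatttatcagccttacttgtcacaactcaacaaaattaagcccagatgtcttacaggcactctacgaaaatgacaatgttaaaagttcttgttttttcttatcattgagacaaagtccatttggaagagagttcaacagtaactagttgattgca

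The remaining 19 of the 73 genes had a mean under 0.5 RPKM and were not tested. Cyp2b19, Cyp2j11, Cyp2j12, Cyp2j13, Cyp2t4, Cyp2w1 and Cyp4x1 were listed at 0 in every library. The other 12 were above 0 in at least 1 library, and none exceeded 0.592 RPKM, reached by Cyp4f18 in 2-week replicate 3. Of these, Cyp2b13, Cyp2b23, Cyp2c66 and Cyp2j8 were at 0 in all 3 control livers and above 0 in at least 1 oncogene liver. Cyp2j8 read 0, 0.0240, 0.0950 and 0.107 RPKM at 2 weeks and 0.157, 0.127, 0.0370 and 0.173 RPKM at 3 weeks.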

How the data were processed

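Total RNA of 11 mouse livers was sequenced, 1 library per mouse. The RPKM values were made by the authors, who aligned reads to mm10 (HISAT2), obtained gene-level counts from featureCounts and used DESeq for their own comparisons; versions are not given in the sources used here. The labels name an rRNA depletion kit and the methods an mRNA kit, so the library type is not settled. Of 23420 names in the table, 27 made only of digits were left out. Values were analysed as log2(RPKM + 0.5), so a log2 change understates the change of low genes. Genes with a mean of at least 0.5 RPKM (11170) were tested with limma 3.58.1 (trend, R 4.3.3), all groups in 1 model, with Benjamini-Hochberg adjustment over all of them and a threshold of 0.05. The statistics were first tested on simulated data.

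Alternatives were pseudocounts of 0.1 and 1, no filter, a mean of at least 2 RPKM, centring each library on its median, only the groups compared, the replicate number as a block, the omission of 2-week replicates 1 and 2, and the omission of every mouse in turn. Read totals were inferred from a score that rose with the share of low values that became whole reads and with the number of values. Each was then refined to the smallest mean distance from whole reads. At these totals 44.95% to 53.14% of the values examined were within 0.05 reads of a whole number. The median share over all totals tried was 6.91% to 8.51%, depending on the library. Totals and read counts are approximate. Gene positions and shared 50-base words came from GENCODE M21, with 71 of 73 members matched, and RefSeq (GRCm38.p6) gave the others and the promoters. Named genes were members that passed in any comparison, the 10 most abundant in control livers, the 5 largest changes each way, those whose groups did not overlap, and the pericentral, periportal, AhR-induced and sex-biased members. Members and lists were chosen with earlier results of these data known. Python 3.11.15, pandas 2.3.3, scipy 1.17.1, matplotlib 3.10.9 and Biopython 1.88 were used.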

Additional observations from a re-analysis of the deposited data

Results flagged for a closer look

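In 11 cases 1 liver stood apart from the other 3 of its group, its gap to the nearest, as a share of the range of the group, being over Dixon's critical value. Chance gives this in about 1 in 20 groups, or 3.4 of the 68 examined. Of the 11, 6 were in 2-week replicate 3. It was the highest of its group in Cyp2b10 (4.05 RPKM), Cyp2c38 (17.3 RPKM), Cyp3a44 (2.84 RPKM), Cyp4a10 (58.7 RPKM) and Cyp4a14 (43.5 RPKM), and the lowest in Cyp2d9 (539 RPKM). The 2-week replicate 2 was the lowest in Cyp1a1 (0.345 RPKM). Among the 3-week livers, replicate 1 was the highest in Cyp2c40 (20.5 RPKM) and replicate 2 the lowest in Cyp2c70 (468 RPKM). The 3-week replicate 3 was the highest in Cyp2b10 (1.21 RPKM) and the lowest in Cyp2c68 (80.3 RPKM).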

How the results depend on the processing

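For oncogene against control, 5 P450 genes passed; 3 did with no filter, 1 with median centring and 11 without 2-week replicates 1 and 2, where 1.58%, 0.850% and 13.5% of all tested genes passed, against 4.18%. At 2 weeks 1 passed, 0 with a pseudocount of 1, no filter or median centring (17, 13 and 17 at an unadjusted p under 0.05 in limma), and 3 without 2-week replicates 1 and 2, where 1.97% of all tested genes passed, against 0.286%. At 3 weeks 4 passed, 10 with only the groups compared and 9 without 2-week replicates 1 and 2, where 15.7% and 15.9% of all tested genes passed, against 8.47%. Leaving out 1 liver gave 0 to 7 for oncogene against control, 0 to 2 at 2 weeks and 1 to 8 at 3 weeks. Between 3 and 2 weeks 0 passed in limma under each alternative, with 0 to 8 at an unadjusted p under 0.05. The causes of these differences were not tested.

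With the replicate block, 3 passed for oncogene against control, 3 at 2 weeks and 6 at 3 weeks, where 0.833%, 0.206% and 3.13% of all tested genes passed, against 4.18%, 0.286% and 8.47% without it. Correlations of same-numbered livers ran from 0.00858 to 0.280 and exceeded 0.1 in 2 of 10 pairs. Between differently numbered livers of different groups they ran from -0.237 to 0.129. Whether same-numbered livers share more than a number was not tested.

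Among the named genes, the log2 change, oncogene against control, reversed to -0.062 in Cyp2c38 and -0.14 in Cyp2d26 with median centring, which moved every gene by -0.20. Without 2-week replicates 1 and 2 it reversed to 0.11 in Cyp2c39 and -0.0033 in Cyp2u1. Leaving out 1 liver gave -0.23 to 0.16 in Cyp2c39, reversed without control replicate 1 and, at 0.07, without 2-week replicate 1. It gave -0.13 to 0.055 in Cyp2d9, reversed without control replicate 1 and, at 0.01, without 2-week replicate 3. With 1 liver left out, the small changes in Cyp2a12 (-0.19 to -0.07), Cyp2c38 (0.03 to 0.21), Cyp2d26 (0.03 to 0.10), Cyp2f2 (-0.16 to -0.02) and Cyp2u1 (0.11 to 0.46) also moved by over 1.5 times. For the named genes, direction and side of the threshold were as first given in 516 cases, 21 no longer passed and 9 newly passed. The inferred depth limits what low genes can show.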
